A study of Mus musculus with 2 samples.

Results

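The 38 genes described here code for proteins of the cell cycle, and they were taken by name from the 27998 genes of the deposited tables, where all 38 were found. By the phase in which their products act, 14 were put in an S set (Pcna, Mcm2, Mcm3, Mcm4, Mcm5, Mcm6, Mcm7, Tyms, Rrm1, Rrm2, Gins2, Tk1, Ccne1 and Ccne2), which serve the copying of DNA. Another 19 were put in a G2/M set (Mki67, Top2a, Birc5, Ccnb1, Ccnb2, Ccna2, Cdk1, Ube2c, Cenpa, Cenpe, Cenpf, Nusap1, Cdc20, Cdca8, Aurka, Aurkb, Plk1, Tpx2 and Spc24), which serve entry into mitosis and the separation of chromosomes. The other 5 (Stmn1, Tubb5, Hmgb2, H2afz and Wee1) were put in neither set. The choice names genes and uses no threshold on a measured value.

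A cell that divides first licenses and copies its DNA in S phase and then, after a gap called G2, condenses and separates its chromosomes in mitosis (M). Transcription of the first group of genes is driven by E2F factors once cyclin-dependent kinases have inactivated the retinoblastoma protein, and transcription of the second group rises later, through the MuvB complex with B-MYB and FOXM1. In inflamed skin, T cells divide locally after antigen or cytokine signals, Langerhans cells renew themselves within the epidermis, and neutrophils are mature cells that have left the cycle.

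The data came from 2 libraries of single cells, 1 from wild-type C57Bl/6 mice (WT) and 1 from mice without the alpha chain of the receptor for the itch cytokine IL-31 (IL31RAKO). Mice of both genotypes had their back skin shaved and were given Biostir ointment with Dermatophagoides farinae house dust mite 2 times a week for 3 weeks, with 2% SDS put on the skin before each application. Dorsal neck skin of 4 mice was pooled for each library, live (DAPI-) cells carrying the leukocyte protein CD45 were sorted, and 30000 cells were loaded for 3′ sequencing. Both libraries therefore came from mite-treated skin, and no untreated skin was analysed here. Ages and sexes are not given in the sources used here. With 1 library of pooled mice per genotype there is no replicate, no difference below could be tested against the spread between mice, and genotype, pool and library cannot be told apart.

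The WT library held 57000499 UMIs (unique molecular identifiers, which count captured RNA molecules) and the IL31RAKO library 71333292. Barcodes with 500 or more UMIs, 250 or more genes and under 10% mitochondrial UMIs were kept as cells, which left 11934 WT cells with a median of 2918.5 UMIs and 14619 IL31RAKO cells with a median of 3181. The libraries shared 247 of these barcodes, which were kept as separate cells. Il31ra, the targeted gene, had 11 UMIs in the WT cells (exact 95% Poisson interval 5.49 to 19.7) and 26 in the IL31RAKO cells (17 to 38.1). Since 3′ sequencing reads the end of a transcript, which a deletion elsewhere in the gene can leave in place, these counts check neither the deletion nor the labels. Cells were assigned to classes from marker genes, with names rebuilt here that may differ from those of the study, and cells carrying markers of 2 lineages (266 WT and 496 IL31RAKO cells) were kept out of all classes. The Cd45 gene itself, Ptprc, was detected in the class most discussed below at 343 CPM (UMIs of a gene over all UMIs of the cells, on the usual CPM scale) in WT and 358 in IL31RAKO. The summed CPM of a neutrophil marker list was higher in the IL31RAKO library in cells that are not neutrophils: over 12 other classes it ran from 53.5 to 223 (median 103) in WT and from 264 to 922 (median 461) in IL31RAKO. The part of these markers in the results below was not tested beyond the values given beside them.

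Promoters of the members are described first, because many G2/M genes and some Mcm genes share short sequence words there. Windows of 300 bases, from 250 before to 50 after the annotated start, were taken from RefSeq on build GRCm38.p6 for the 29 of 38 members that have one. The word TTTGAA on either strand, the core of the element called CHR that MuvB complexes bind, was in the window of 11 of 15 G2/M genes and of 1 of 11 S genes (Mcm2), against 17.9% of 32851 windows of all genes. An E2F word (TTTCCCGC, TTTCGCGC, TTTGCCGC or TTTGGCGC on either strand) was in that of 4 of 11 S genes (Mcm3, Mcm5, Mcm6 and Mcm7) and of 1 of 15 G2/M genes (Cdk1), against 2.26% of all windows. The word CCAAT was in 24 of 29 members and in 37.4% of all windows, and all 11 G2/M genes with the CHR word held CCAAT as well, a pair found in 6.95% of all windows. These are matches of letters, not sites shown to be bound. Birc5, Nusap1, Ccnb1 and Cenpe had no such CHR word in this window.

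The 150 bases before the start are printed 5′ to 3′ on the gene's strand for 2 S genes and 3 G2/M genes. Capitals mark E2F, CHR and CCAAT words. The S genes were picked for an E2F word there and the G2/M genes for both CHR and CCAAT words. The presence of these words in the printed windows was thus fixed by the choice. By that rule 2 S genes and 5 G2/M genes qualified. Mcm6 (chr1:128359706-128359855, minus strand) and Mcm5 (chr8:75109359-75109508, plus strand) code for subunits of the MCM helicase that unwinds DNA. Top2a (chr11:99024190-99024339, minus strand) codes for topoisomerase II alpha, which untangles sister chromatids, and Mki67 (chr7:135716380-135716529, minus strand) for Ki-67, which coats mitotic chromosomes. Cdk1 (chr10:69352913-69353062, minus strand) codes for the kinase that starts mitosis, and its window is the only G2/M window with an E2F word.
Mcm6: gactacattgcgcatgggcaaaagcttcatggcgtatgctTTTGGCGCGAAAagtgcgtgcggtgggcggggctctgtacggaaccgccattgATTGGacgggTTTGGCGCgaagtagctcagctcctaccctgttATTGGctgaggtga
Mcm5: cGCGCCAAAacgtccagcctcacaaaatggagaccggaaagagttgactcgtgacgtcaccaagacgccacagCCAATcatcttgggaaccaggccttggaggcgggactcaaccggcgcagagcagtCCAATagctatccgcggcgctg
Top2a: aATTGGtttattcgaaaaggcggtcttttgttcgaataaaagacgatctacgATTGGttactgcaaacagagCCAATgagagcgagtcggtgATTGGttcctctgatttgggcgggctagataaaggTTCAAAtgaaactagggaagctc
Mki67: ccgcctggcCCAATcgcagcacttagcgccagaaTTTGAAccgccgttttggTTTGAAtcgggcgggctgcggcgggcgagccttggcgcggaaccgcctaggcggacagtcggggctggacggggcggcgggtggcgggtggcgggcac
Cdk1: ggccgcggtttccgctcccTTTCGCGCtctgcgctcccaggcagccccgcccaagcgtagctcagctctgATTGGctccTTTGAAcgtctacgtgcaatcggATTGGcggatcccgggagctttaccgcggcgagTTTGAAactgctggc
In Mcm6 the capitals mark E2F words at 110 to 99 bases (2 overlapping words, 1 on each strand) and at 47 to 40 bases before the start. In Top2a a reversed CHR word lies 23 to 18 bases before the start, with CCAAT words on 1 strand or the other at 4 places farther up. Mki67 holds CHR words at 116 to 111 and at 98 to 93 bases before the start, and Cdk1 holds them at 71 to 66 and at 15 to 10.

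To see in which cells the members were on, each cell of 1000 or more UMIs was thinned at random to 1000 UMIs, and it was called cycling when at least 3 of these belonged to the S and G2/M sets together. A cycling cell was called G2/M when its G2/M UMIs were at least as many as its S UMIs, and S otherwise. Each member was then profiled over all UMIs of the cells, with its own UMIs left out of the call. All 19 G2/M genes were higher in G2/M cells than in S cells, by 1.95-fold (Spc24, a kinetochore subunit) to 9.40-fold (Cenpf, another kinetochore protein), with a median of 4.81-fold. Cenpf was at 211 CPM in G2/M cells, 22.4 in S cells and 3.89 in cells not cycling. Ube2c, the enzyme that hands ubiquitin to the anaphase-promoting complex, was at 652, 82.9 and 14.2 CPM in the same order.

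Of the 14 S genes, 11 were higher in S than in G2/M cells. Mcm2, another helicase subunit, was the steepest, at 125 CPM in S cells, 45.4 in G2/M cells and 16.3 in cells not cycling. Pcna, the clamp that holds the polymerase on DNA, was at 437, 253 and 76.8 CPM. The other 3 S genes serve the supply of DNA building blocks, and their ratio of G2/M to S cells was above 1: 1.33 for Rrm2 (95% interval 1.23 to 1.45), 1.18 for Rrm1 (1.06 to 1.32) and 1.10 for Tk1 (0.99 to 1.24). Rrm2 and Rrm1 code for the subunits of ribonucleotide reductase and Tk1 for thymidine kinase. Tyms, thymidylate synthase of the same supply, was close behind at 0.95.

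The 5 members in neither set divided into different patterns. Stmn1, which breaks down microtubules, was at 1109 CPM in S cells, 1932 in G2/M cells and 98.8 in cells not cycling. H2afz, which codes for the histone variant H2A.Z, was also at 1406 CPM in cells not cycling, against 2194 in S and 3459 in G2/M cells, and 77.9% of its UMIs lay outside cycling cells. Wee1, the kinase that holds Cdk1 inactive, stood apart with 12.7 CPM in S cells, 12.5 in G2/M cells and 6.24 in cells not cycling. Its level differed between S and G2/M cells by less than counting error (ratio 0.98, 0.69 to 1.43). H2afz, Tubb5 (a beta-tubulin) and Hmgb2 (a chromatin protein) have near-identical copies in the genome, so their counts are uncertain. Counts of 3′ tags are also not given per length, so levels are not ranked between genes. The plot of phase profiles shows how the sets part.

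**Figure D1:**
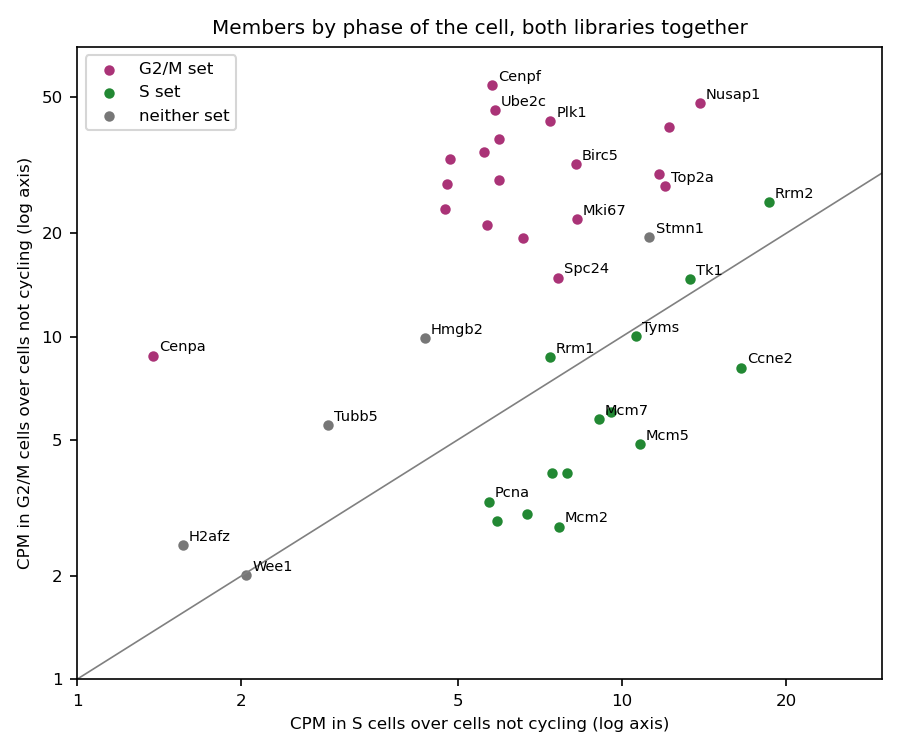
Each point is 1 member, coloured by set, with its CPM in S cells over cells not cycling on the horizontal axis and its CPM in G2/M cells over cells not cycling on the vertical axis, both log axes, for both libraries together. All 19 G2/M genes lie above the line of equal level in S and G2/M cells, 11 of 14 S genes lie below it, and Wee1 lies close to it.

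Lists of other cycle genes were fixed beside the members, with members left out. Of 32 other S genes, such as Uhrf1 and Cdc6, 27 were higher in S cells, and all 38 other G2/M genes, such as Bub1 and Kif11, were higher in G2/M cells. Of 18 G1 regulators and E2F factors, 14 were higher in S cells. Of 21 genes that brake the cycle, such as Cdkn1b (p27) and Rb1, 14 were higher in G2/M than in S cells, but 12 of 21 were higher in G2/M cells than in cells not cycling.

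Cycling cells made up a smaller share of the IL31RAKO library than of the WT library. In WT 887 cells or 8.34% were cycling (exact binomial 95% interval 7.82 to 8.88) and in IL31RAKO 734 or 5.57% (5.18 to 5.97), a ratio of 0.668 (0.608 to 0.734). All intervals here cover counting error only, not the variation between mice, pools or cells, and those of CPM are too narrow where a few cells hold most UMIs. Without thinning, 25.9% of WT and 22.0% of IL31RAKO cells passed the same call. Neutrophil-like cells, which should not divide, gave the background of the call: 2 of 183 WT cells (1.09%, median 1170 UMIs) and 7 of 838 IL31RAKO cells (0.835%, median 1205 UMIs). Basophil-like cells had 0 of 60 and 0 of 113, which allow shares of up to 5% and 2.65% by the limit of 3 counts over the cells. The division between phases differed by less than counting error, since G2/M cells were 66.2% of cycling cells in WT and 66.3% in IL31RAKO (ratio 1.00, 0.935 to 1.08).

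The 2 libraries also differed in which cells they held. Lymphoid cells (T cells and cells of an innate lymphoid marker list) were 47.0% of the WT and 31.9% of the IL31RAKO library, and myeloid cells 32.1% and 45.7%. Within lymphoid cells 634 of 5315 (11.9%, 11.1 to 12.8) were cycling in WT and 415 of 4399 (9.43%, 8.59 to 10.3) in IL31RAKO, a ratio of 0.791 (0.703 to 0.889). Within myeloid cells the shares were 3.71% (3.11 to 4.38) and 2.75% (2.36 to 3.18), a ratio of 0.742 (0.594 to 0.927). Lymphoid cells supplied 71.5% of the cycling cells of WT and 56.5% of those of IL31RAKO. With the IL31RAKO rates set on the class mix of WT the share was 6.62%, or 0.793 of that of WT. With the WT rates set on the mix of IL31RAKO it was 6.34%, and the IL31RAKO share was 0.879 of that.

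**Figure D2:**
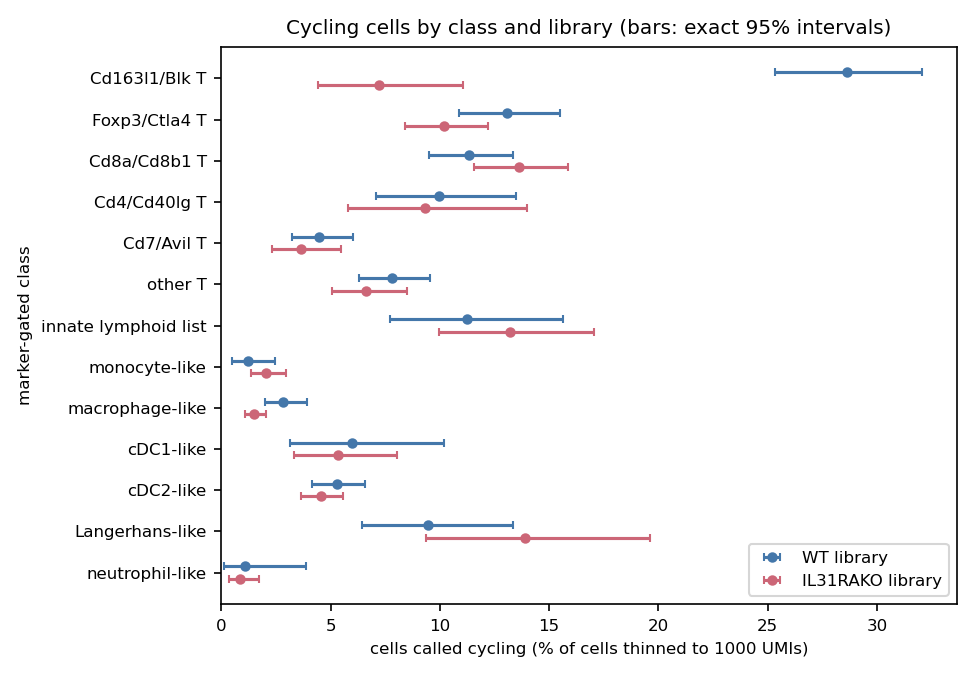
Percent of cells called cycling after thinning to 1000 UMIs, by class and library, with exact binomial 95% intervals. The Cd163l1/Blk T cells are at 28.6% in WT and 7.22% in IL31RAKO, and neutrophil-like cells give the background near 1%.

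Read gene by gene over all cells, 36 of 38 members had a ratio of IL31RAKO over WT below 1, and their median log2 ratio was -0.50 against -0.10 for all genes measured (50 or more UMIs over both libraries). Past a fold of 1.5, the size used here in place of a test, 7 of 38 members were lower and 0 higher, where 7.92% of all genes were lower and 5.37% higher. Of the 7, 6 belonged to the G2/M set and 1 to the S set. Top2a was at 110.6 CPM in WT against 70.2 in IL31RAKO (ratio 0.635). Mki67 was at 67.3 and 42.5 (0.632), and Cenpf had the lowest ratio, 0.553. In the S set, Rrm2 was at 54.2 and 33.7 CPM (0.622), Mcm7 at 44.7 and 30.3 (0.679), and Pcna at 115.8 and 87.5 (0.756).

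H2afz and Wee1 were the members with ratios above 1. H2afz was at 1479 CPM in WT against 1662 in IL31RAKO (1.12), the highest ratio of any member, and Wee1 was at 6.86 and 7.14 (1.04, 0.899 to 1.21). Among the other abundant members, Mcm3 had a ratio of 0.754, Mcm6 0.783, Birc5 (survivin, of the chromosomal passenger complex) 0.689, Ube2c 0.696, Cenpa (the centromeric histone) 0.837, Stmn1 0.677, Hmgb2 0.784 and Tubb5 0.860. Within cycling cells alone 0 of 38 members passed the fold in either direction (background 5.44% higher and 4.52% lower), and their median log2 ratio was -0.15. In cells not cycling 0 were higher and 1 was lower (Nusap1, a spindle protein, 0.592; background 4.83% and 7.99%), with a median of -0.20. Cells were called by UMIs of these same genes, so like levels within the call are largely fixed by it. Free RNA limits the latter, since only 2 of 38 members in cells not cycling were above the level of barcodes with 10 to 50 UMIs in both libraries, whereas all 38 were in cycling cells, which the call selects.

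Among lymphoid cells the lowest ratios belonged to a class of T cells defined here by Cd163l1 and Blk, genes of interleukin-17-producing gamma-delta T cells of mouse skin, of whose 4 markers fixed here these 2 are listed in the tables. The T list stood at 5194 CPM in its WT and 6499 in its IL31RAKO cells, with 6 of 6 genes detected. Cells had to pass this T list to enter the class, so its presence was fixed by the gate and is no separate check. It held 722 WT and 266 IL31RAKO cells, 6.05% and 1.82% of the libraries. A single Leiden cluster of 1448 cells held 841 of them. Of its thinned cells 206 of 720 were cycling in WT (28.6%, 25.3 to 32.1) and 19 of 263 in IL31RAKO (7.22%, 4.41 to 11.1), a ratio of 0.253 (0.161 to 0.395). Without thinning the shares were 52.5% and 25.9%. The size of this ratio depended on the call: it was 0.402 where 2 UMIs sufficed, 0.435 with cells thinned to 2000 UMIs and 0.782 with the phase scores of scanpy, which called 48.7% of all WT and 43.9% of all IL31RAKO cells cycling. The class gave 23.2% of all cycling cells of WT and 2.59% of those of IL31RAKO. S cells were 8.89% and 3.04% of the class (ratio 0.342) and G2/M cells 19.7% and 4.18% (0.212, 0.117 to 0.385).

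The other lymphoid cells, with this class set aside, lay close to even between the libraries. They had 428 of 4595 cycling in WT (9.31%) and 396 of 4136 in IL31RAKO (9.57%), a ratio of 1.03 (0.903 to 1.17), and no member passed the fold in either direction (background 3.13% higher and 3.26% lower). Their median log2 ratio was 0.093, with 28 of 38 members above 1, against -0.04 for all genes. Over all cells without the class the shares were 6.87% and 5.54%, a ratio of 0.806 (0.728 to 0.892). With the class included, lymphoid cells had 1 member past the fold upward (Wee1, 1.52) and 2 downward (background 3.72% and 3.45%), Cenpf at 0.574 and Aurka at 0.64. The median log2 ratio was then -0.29. The class was set aside after its values had been seen.

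**Figure D3:**
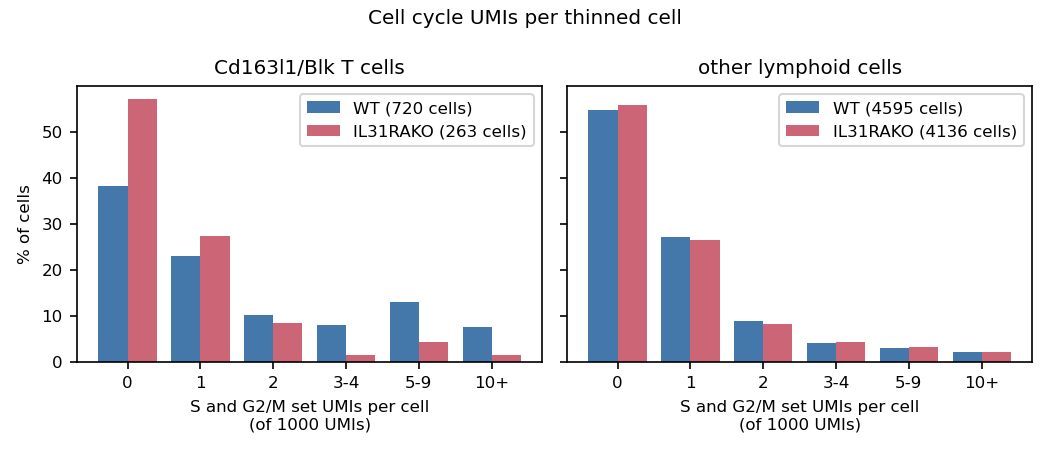
Percent of cells by the number of S and G2/M set UMIs they held after thinning to 1000 UMIs, for Cd163l1/Blk T cells and the other lymphoid cells (panels) of both libraries (colours). In Cd163l1/Blk T cells 7.64% of WT and 1.52% of IL31RAKO cells held 10 or more, and 38.2% and 57.0% held none.

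The distribution of set UMIs per cell shows fewer IL31RAKO than WT cells with many such UMIs in the Cd163l1/Blk T class. Cells with 5 to 9 were 12.9% of the class in WT and 4.18% in IL31RAKO, and cells with 10 or more were 7.64% and 1.52%. Depth moved with this result: the median was 3994.5 UMIs in WT and 3167 in IL31RAKO, and cycling cells of the class had medians of 6736 and 5504. Among cells of 2000 to under 4000 UMIs, 25 of 326 WT cells (7.67%) and 3 of 166 IL31RAKO cells (1.81%) were cycling, a ratio of 0.236 (0.0722 to 0.769). Among cells of 4000 to under 8000 UMIs the ratio was 0.401 (0.215 to 0.748). In cells of 8000 or more UMIs 83 of 103 (80.6%) and 6 of 8 (75%) were cycling, a ratio of 0.931 (0.617 to 1.40), on only 8 IL31RAKO cells. After thinning, a Top2a UMI was seen in 15.3% of WT and 4.94% of IL31RAKO cells of the class, and in 2.19% and 1.31% of neutrophil-like cells. The same shares for Mki67 were 10.0% and 4.56%, against 1.64% and 1.55%.

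In CPM, all 36 members measured in Cd163l1/Blk T cells were lower in IL31RAKO, 32 of them past the fold and 0 in the other direction (background 11.6% lower and 5.89% higher). The 95% counting interval was below 1 for 34 members, and the share of all genes with such an interval was not computed. The median log2 ratio was -1.38, against -0.06 for all genes measured in the class. All 19 G2/M genes were past the fold, with a median of -1.76. Of 13 S genes 9 were, with a median of -1.04, and of 4 in neither set all 4 were, with a median of -1.08. As a sum, the G2/M set was at 2604 CPM in WT against 793 in IL31RAKO (0.305, 0.283 to 0.328), and the S set at 1311 and 694 (0.529, 0.488 to 0.574).

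The mitotic regulators had the lowest ratios. Aurkb, the kinase that corrects the attachment of chromosomes to the spindle, had 147 UMIs in WT and 6 in IL31RAKO, or 39.9 and 6.14 CPM, a ratio of 0.154 (0.0556 to 0.343). Cenpf was at 98.0 and 17.4 CPM (0.178), Ube2c at 301 and 71.7 (0.238) and Birc5 at 312 and 82.9 (0.265). Mki67, the usual histological marker of dividing cells, was at 206 and 64.5 CPM (0.313, 0.238 to 0.405). Cdk1 was at 128 and 44.0 CPM (0.344), Top2a at 381 and 132 (0.347) and Cenpa at 201 and 72.7 (0.362).

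Genes of DNA copying spanned a wider range. Rrm2 was at 189 CPM in WT against 70.6 in IL31RAKO (0.373) and Mcm5 at 101 and 39.9 (0.394). The replication genes Mcm7, Mcm3, Pcna and Mcm6 had ratios of 0.487, 0.533, 0.615 and 0.692, and the highest of any member of the class was that of Tyms, 0.732. Mcm6 and Mcm5, both with E2F words in the windows printed above, were thus at different points of the range. Stmn1 was at 1052 and 425 CPM (0.404), Hmgb2 at 1650 and 713 (0.432), Tubb5 at 1213 and 626 (0.517) and H2afz at 1509 and 894 (0.592). The remaining members, Wee1 with 24 and 13 UMIs and Ccne1 (cyclin E1) with 31 and 6, had too few UMIs for a ratio.

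**Figure D4:**
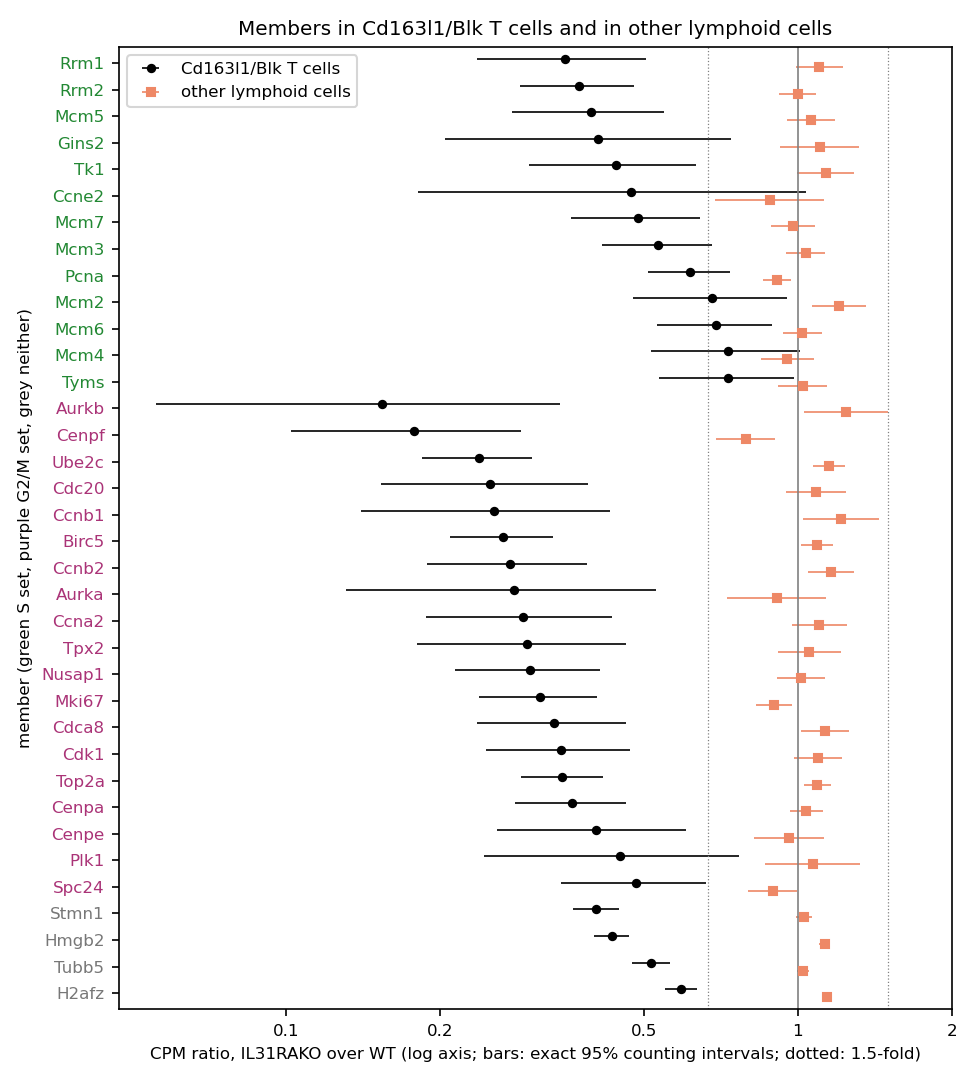
Ratio of CPM, IL31RAKO over WT, for the 36 members measured in Cd163l1/Blk T cells, on a log axis with 95% counting intervals, in these cells (black) and in the other lymphoid cells (orange), with dotted lines at the 1.5-fold. All 36 members lie below 1 in Cd163l1/Blk T cells, and the same members lie around 1 in the other lymphoid cells.

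Within the cycling cells of this class, 9 of 36 members were past the fold downward and 2 upward (background 17.2% and 8.88%), with a median log2 ratio of -0.23. The cells were called by UMIs of these same S and G2/M genes, which limits what their levels here can show. The S set had a median of 0.31, with 2 of 13 higher, Tyms at 1.63 and Ccne2 (cyclin E2) at 1.51. The G2/M set had a median of -0.58, with 9 of 19 lower. By the call, G2/M cells were 68.9% of cycling cells in WT and 57.9% in IL31RAKO, a ratio of 0.840 whose interval includes 1 (0.566 to 1.25). Only 19 IL31RAKO cells stand behind these values, and Aurkb had 133 UMIs in WT and 2 in IL31RAKO, a ratio of 0.174 with almost no counts in 1 library. In the cells of the class not called cycling, 9 of 23 members were lower and 0 higher (background 7.88% and 4.09%), with a median of -0.52. Of those 23, 12 were at or below free RNA in both libraries. Over the whole class, up to 8.93% of the UMIs of a member came from 1 cell in WT and up to 42.9% in IL31RAKO. In its cycling cells these shares reached 10.9% and 50%, and in those not cycling 16.7% and 38.2%. Over the whole class all 36 measured members were above free RNA in WT and 26 in IL31RAKO.

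Markers of other cells in this class differed as well. The neutrophil list was at 62 CPM in WT against 288 in IL31RAKO and the macrophage list at 203 and 350, both small against the T list, and their part in the member ratios was not tested. The 2 genes of the gate stood at 928 and 1450 CPM. The list of type 17 genes, which code for the cytokines and receptors of interleukin-17-producing cells, was at 4537 CPM in cycling cells of WT and 3044 in those of IL31RAKO. In cells not cycling it was at 4635 and 2594. The list thus differed between the libraries in cells not cycling too.

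The other T cell classes differed much less. Foxp3/Ctla4 T cells, with genes of regulatory T cells, had 111 of 850 cycling in WT (13.1%) and 107 of 1050 in IL31RAKO (10.2%), a ratio of 0.780 (0.608 to 1.00). Past the fold 2 members were lower, Aurka (a kinase of the spindle poles) at 0.625 and Spc24 at 0.645, and 0 were higher (background 3.54% and 3.59%). The median log2 ratio was -0.31, and the member with the highest ratio was Aurkb at 1.12. The S set as a sum had a ratio of 0.789 and the G2/M set 0.832.

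Cd8a/Cd8b1 T cells, which carry genes of cytotoxic T cells, lay on the other side. Their cycling share was 11.3% in WT (122 of 1078) and 13.6% in IL31RAKO (140 of 1029), a ratio of 1.20 (0.958 to 1.51) whose interval includes 1. G2/M cells were 6.77% and 9.14% of the class (1.35, 1.01 to 1.81). Of 38 members 29 had a ratio above 1, with a median log2 ratio of 0.16, and 2 were higher past the fold, Wee1 (2.42, 1.36 to 4.51) and Tk1 (1.5), with 0 lower (background 2.71% and 3.13%). Aurka was lowest at 0.702. The sums had ratios of 1.14 (1.09 to 1.21) for the S set and 1.06 (1.02 to 1.11) for the G2/M set.

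In cells of the innate lymphoid list 6 of 11 measured S genes were higher in IL31RAKO past the fold, and 2 of 11 had a ratio below 1. The T list stood at 1296 CPM in the WT and 1104 in the IL31RAKO cells of this class, against 605 and 513 in neutrophil-like cells. Whether T cells that failed the T gate are among them was not tested. The cycling shares of the class were 11.2% (30 of 267) and 13.2% (50 of 378), a ratio of 1.18 whose interval includes 1 (0.770 to 1.80). S cells were 5.24% and 4.23% of the class (0.807, 0.401 to 1.63) and G2/M cells 5.99% and 8.99% (1.5, 0.846 to 2.66), so the share of S cells did not lie on the side of the S genes. The S set stood at 608 CPM in WT against 880 in IL31RAKO (1.45, 1.31 to 1.60), and the G2/M set had a ratio of 1.06. Of 34 members 8 were higher and 1 lower past the fold (background 5.43% and 5.07%), and 6 of the 8 were S genes: Mcm2 (2.36), Mcm6 (1.87), Rrm1 (1.65), Rrm2 (1.58), Tyms (1.51) and Mcm7 (1.5). The other 2 were Aurkb (2.06) and Wee1 (1.90), and Cenpf was the lower one (0.508). Up to 46.7% of the UMIs of a member came from 1 cell in WT and up to 20% in IL31RAKO.

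In the smaller or less cycling T classes the intervals were wide. Cd4/Cd40lg T cells, with helper T cell genes, had cycling shares of 9.94% and 9.30% (ratio 0.935, 0.556 to 1.57). Of 29 members 1 was higher (Tk1, 1.83) and 1 lower (Rrm2, 0.526), where 3.9% and 4.7% of all genes were. Cd7/Avil T cells had shares of 4.49% and 3.65% (0.814, 0.490 to 1.35). Of their 29 members 3 were lower and 0 higher (background 4.16% in either direction). The lower ones were Ccnb2 (cyclin B2) at 0.524, Tpx2 at 0.573 and Spc24 at 0.664, and Cenpa was highest at 1.41. Only 4 of the 29 members were above free RNA in both libraries, and 13 were so in neither. T cells of no subset had shares of 7.82% and 6.61% (0.845, 0.613 to 1.17), with 2 of 36 members higher and 0 lower (background 2.92% and 4.56%). These were Wee1 at 1.82 and Ccnb1 at 1.63, and Cenpf was lowest at 0.736.

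In myeloid cells 4 of 38 members were lower past the fold and 0 higher (background 3.06% and 2.85%), with a median log2 ratio of -0.27 against -0.01 for all genes. The 4 belong to the G2/M set: Cenpe, a motor that lines up chromosomes, at 0.614, Aurka at 0.625, Ccnb1 (cyclin B1) at 0.648 and Nusap1 at 0.649. Cenpa was highest at 1.06. The G2/M set as a sum was at 387 CPM in WT against 303 in IL31RAKO (0.783) and the S set at 303 and 269 (0.886). These levels lie below those of free RNA, where the S set was at 493 and 484 CPM and the G2/M set at 569 and 674. Only 6 of 38 members were above free RNA in both myeloid groups, and 27 were so in neither.

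Among the myeloid classes, macrophage-like cells had the lowest ratio of the G2/M set, at 332 CPM in WT against 200 in IL31RAKO (0.603, 0.565 to 0.644). Their S set was at 275 and 230 (0.836). Of 1301 WT cells 37 were cycling (2.84%, 2.01 to 3.90) and of 2633 IL31RAKO cells 40 (1.52%, 1.09 to 2.06), a ratio of 0.534 (0.343 to 0.831), where neutrophil-like cells had 1.09% and 0.835%. Of 34 members 12 were lower and 0 higher past the fold (background 3.49% and 4.4%), 8 of 17 in the G2/M set and 3 of 12 in the S set, and the median log2 ratio was -0.49. Cenpe had 62 and 34 UMIs, a ratio of 0.258 (0.165 to 0.398). Nusap1 was at 15.1 and 5.36 CPM (0.354), Top2a at 44.6 and 17.4 (0.389) and Spc24 at 23.2 and 11.2 (0.483). Mki67 was at 22.6 and 16.4 CPM (0.725), and Mcm6 had the highest ratio, 1.03.

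Depth and free RNA moved with the macrophage-like result. Only 1 of the 34 members was above free RNA in both libraries and 28 were at or below it in both, where Top2a stood at 76.5 and 105 CPM. The neutrophil list was at 152 CPM in WT against 727 in IL31RAKO, and median depths were 2483 and 3175 UMIs. Up to 25% of the UMIs of a member came from 1 cell. Beyond the subtraction of free RNA at 5% of UMIs given in the closing section, the part of these in the result was not tested. The gates took free RNA as 20% of UMIs, and no subtraction was made at that share.

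The dendritic cells and monocyte-like cells had ratios of cycling shares whose intervals include 1. The cycling shares were 5.97% and 5.34% in cDC1-like cells (0.895, 0.450 to 1.78), 5.27% and 4.55% in cDC2-like cells (0.862, 0.636 to 1.17) and 1.20% and 2.04% in monocyte-like cells (1.70, 0.743 to 3.87). Conventional dendritic cells of these types present antigen to CD8 and CD4 T cells, respectively. In cDC1-like cells 1 of 33 members was higher (Cdc20, an activator of the anaphase-promoting complex, 1.54) and 2 were lower (background 4.23% and 2.94%), Gins2, of the replicative helicase, at 0.589 and Aurkb at 0.604. In cDC2-like cells 0 were higher and 1 was lower (Ccnb1, 0.649, with a background of 2.33% and 2.69%), and the highest was Ccne1 at 1.09. Only 7 of 33 members in cDC1-like cells and 6 of 38 in cDC2-like cells were above free RNA in both libraries. In neither library were 16 and 25 of them so. Up to 34.5% of the UMIs of a member came from 1 cell in WT cDC1-like cells. In monocyte-like cells 1 of 33 was higher (Gins2, 1.94) and 4 were lower (background 3.57% and 4.12%), Ccnb1 (0.424), Cdc20 (0.446), Nusap1 (0.634) and Mcm7 (0.641). In the monocyte-like class only 1 of 33 members was above free RNA in both libraries and 26 were so in neither, up to 36.1% of the UMIs of a member came from 1 cell, and the neutrophil list was at 133 CPM against 922. Their part in these ratios was not tested.

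Neutrophil-like cells, the background of the call, had too few member UMIs for most genes. Only 6 members were measured, of which 1 was higher (Stmn1, 1.66) and 0 lower, where 5.98% and 11.7% of all genes were, and Pcna was lowest at 0.806. Mature dendritic-like cells had 2 of 67 cycling in WT (2.99%) and 0 of 89 in IL31RAKO, which allows a share of up to 3.37% by the same limit.

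Langerhans-like cells, named from Cd207, Epcam and Mfge8, had the highest ratio of the G2/M set among classes of 100 or more cells in each library. All 19 G2/M genes had a ratio above 1, with a median log2 ratio of 0.65, and 12 of the 19 were past the fold. No S gene was, and the S median was -0.12. Over the 35 members measured 12 were higher and 0 lower (background 4.88% and 3.73%), with a median of 0.31. As a sum, the G2/M set was at 699 CPM in WT against 1133 in IL31RAKO (1.62, 1.53 to 1.72), whereas the S set was at 467 and 423 (0.905, 0.833 to 0.982).

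The mitotic genes of Langerhans-like cells had ratios from 1.00 for Tpx2, a spindle assembly factor, to 2.96 for Cenpf. Cenpf was at 13.4 CPM in WT against 39.8 in IL31RAKO (2.96, 2.03 to 4.40), and Ube2c at 41.3 and 117 (2.84, 2.29 to 3.54). Plk1, the polo-like kinase of mitotic entry, was at 6.56 and 16.6 CPM (2.54), and Ccnb1 and Cdc20 had ratios of 2.23 and 2.17. Ccnb2 was at 49.2 and 94.1 CPM (1.91), Cenpa at 81.0 and 128 (1.58) and Birc5 at 98.1 and 151 (1.54). Mki67, with 52.8 and 73.6 CPM (1.39), and Top2a, with 74.8 and 91.9 (1.23), were not past the fold. In the S set, Pcna was at 113 and 92.8 CPM (0.820) and Rrm2 was lowest at 34.8 and 24.1 (0.693).

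Few cells carried the Langerhans-like result. The class held 313 WT and 197 IL31RAKO cells, and 29 of 306 (9.48%, 6.44 to 13.3) and 27 of 194 (13.9%, 9.38 to 19.6) were cycling, a ratio of 1.47 (0.898 to 2.40) whose interval includes 1. S cells were 2.61% and 3.61% of the class (1.38, 0.509 to 3.75) and G2/M cells 6.86% and 10.3% (1.5, 0.837 to 2.70). G2/M cells were 72.4% and 74.1% of cycling cells (1.02, 0.745 to 1.40), so the phase shares do not show the parting of the sets seen in CPM. Up to 20% of the UMIs of a G2/M gene came from 1 cell in WT and up to 21.1% in IL31RAKO. Median depths were 9722 and 11277 UMIs, and the neutrophil list was at 141 and 706 CPM. After thinning, a Mki67 UMI was seen in 5.23% of WT and 4.12% of IL31RAKO cells and a Top2a UMI in 4.90% and 4.12%, so no order is read from these shares. Of the 19 G2/M genes 12 were above free RNA in both libraries.

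**Figure D5:**
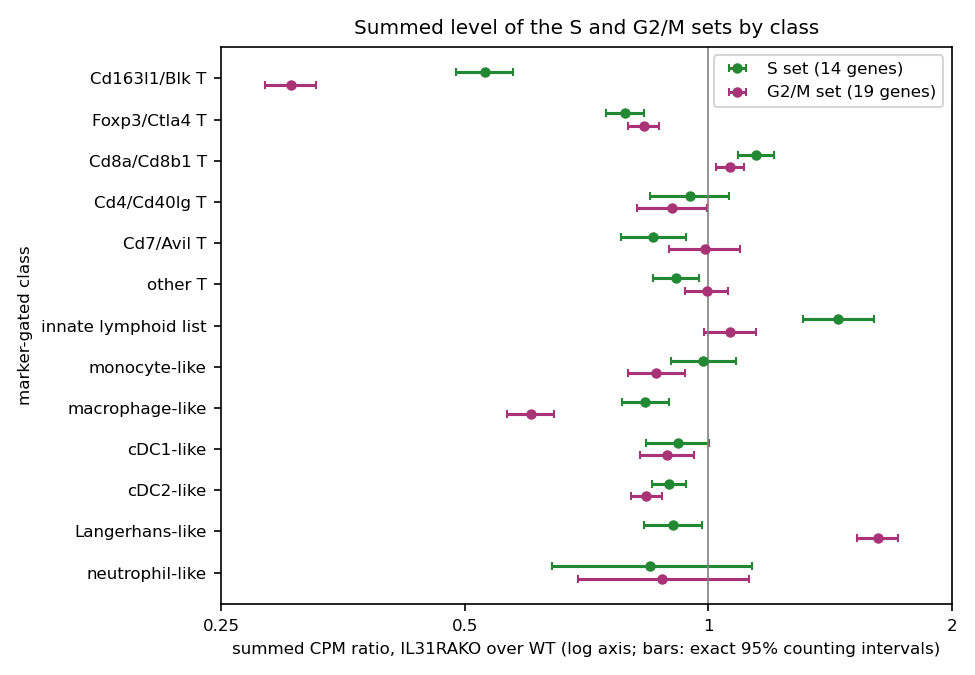
Ratio of summed CPM, IL31RAKO over WT, of the S set and the G2/M set in each class of 100 or more cells per library, on a log axis with 95% counting intervals. Of these classes Cd163l1/Blk T cells lie lowest for both sets (0.529 and 0.305), and Langerhans-like cells have the G2/M set at 1.62 and the S set at 0.905.

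Wee1 had the highest ratio of any member in lymphoid cells, in Cd8a/Cd8b1 T cells and in T cells of no subset. In lymphoid cells it was at 8.72 CPM in WT against 13.3 in IL31RAKO (1.52, 1.23 to 1.88), and in myeloid cells at 5.20 and 4.71 (0.906). By class it was at 4.45 and 10.8 CPM in Cd8a/Cd8b1 T cells (2.42), 14.2 and 27.0 in cells of the innate lymphoid list (1.90, 0.992 to 3.88), 7.31 and 13.3 in T cells of no subset (1.82, 1.06 to 3.17), and 8.12 and 8.72 in Foxp3/Ctla4 T cells (1.07). In Cd7/Avil T cells it was at 19.6 and 16.5 CPM (0.844), in macrophage-like cells at 4.15 and 4.19 (1.01) and in cDC2-like cells at 5.67 and 4.36 (0.768). It had under 50 UMIs in the other classes: 8 and 12 in Cd4/Cd40lg T cells, 13 and 25 in monocyte-like cells, 12 and 37 in cDC1-like cells, 14 and 12 in Langerhans-like cells and 1 and 4 in neutrophil-like cells. Of the UMIs of Wee1, 79.3% lay in cells not cycling, against 77.9% for H2afz, 68.6% for Pcna and 16.4% for Cenpf.

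Most other S and G2/M genes lay on the same side as the members. Over all cells 4 of 32 other S genes (Brip1, Rad51ap1, Hells and Exo1, at 0.631 to 0.651) and 12 of 38 other G2/M genes were lower past the fold and none was higher, where 7.92% of all genes were lower, with median log2 ratios of -0.38 and -0.47. In Cd163l1/Blk T cells 22 of 30 other S genes and 24 of 32 other G2/M genes were lower and none higher (background 11.6% lower), with medians of -0.84 and -1.32. In lymphoid cells without that class 1 other S gene was higher (Blm, a DNA repair helicase, 1.53), none was lower, and no other G2/M gene passed the fold, with medians of -0.01 and 0.03. In Langerhans-like cells 11 of 27 other G2/M genes were higher and none lower (background 4.88% higher), with a median of 0.37.

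Among single genes of these lists in lymphoid cells, the lowest ratios belonged to E2f8 (0.561), Exo1 (0.674) and Brip1 (0.693) of the other S genes and to Gtse1 (0.535), Fam64a (0.611) and Ttk (0.621) of the other G2/M genes. The highest included Dscc1 (0.988) and Blm (1.32) of the former and Lbr (0.992), Gas2l3 (1.05) and Psrc1 (1.14) of the latter. In myeloid cells the lowest were Rad51ap1 (0.686), Hells (0.707) and Brip1 (0.739), and Ckap2 (0.483), Bub1 (0.522) and Ckap2l (0.571). The highest there were Slbp (1.04), Pola1 (1.04) and Dscc1 (1.07), and Hn1 (1.04), Gas2l3 (1.09) and Gtse1 (1.35). Bub1 codes for a kinase of the spindle checkpoint and Brip1 for a DNA repair helicase.

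The G1 regulators and E2F factors were spread to both sides of 1. In lymphoid cells 2 of 17 were lower past the fold (background 3.45%), Foxm1 (0.509, 0.371 to 0.691), the factor that drives G2/M genes, and E2f3 (0.566), and none was higher, with a median log2 ratio of -0.06. Ccnd1 had a ratio of 0.765, Cdk2 1.10, Tfdp1 1.22 and Myc 1.41. In Cd163l1/Blk T cells 5 of 11 were lower and none higher (background 11.6% lower, median -0.54): Foxm1 (0.319), E2f2 (0.503), E2f1 (0.513), Cdk6 (0.567) and E2f5 (0.574). In myeloid cells none of 17 passed the fold (background 3.06% lower, median -0.12), from E2f2 (0.697), Cdc25a (0.779) and Cdk6 (0.810) to Foxm1 (1.14), Mybl2 (1.18) and Tfdp1 (1.21).

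The brakes on the cycle had medians near 0. In lymphoid cells 2 of 20 were higher (background 3.72%) and none was lower, with a median of -0.03. The higher ones were Mxd1 (1.92, 1.76 to 2.08), which opposes Myc, and Cdkn2b (p15, 1.59). The interval of Cdkn2b includes 1 (0.928 to 2.76), on only 26 WT and 34 IL31RAKO UMIs. Cdkn2c (0.761), Cdkn2a (0.838) and Rbl2 (0.863) had the lowest ratios and Gadd45a (1.26) the next highest. In myeloid cells Mxd1 was the only one of 21 past the fold (1.57; background 2.85% higher), with Gadd45a at 1.20 and Cdkn2a at 1.09, and with Cdkn1b (0.866), Mxd4 (0.893) and Tob1 (0.893) lowest. In Cd163l1/Blk T cells 4 of 18 brakes were lower (Cdkn2c, Rbl1, Rb1 and Cdkn2d, at 0.530 to 0.654) and Mxd1 was higher (1.70). Of all genes 11.6% were lower and 5.89% higher. The brakes had a median of 0.03 there, where the members had a median of -1.38. The neutrophil list lay on the same side as Mxd1. Its summed CPM was 113 (WT) against 393 (IL31RAKO) for lymphoid cells not cycling. For macrophage-like cells it was 152 against 727, and for Cd163l1/Blk T cells 62 against 288. The part of these markers in the Mxd1 ratios was not tested.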

How the data were processed

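Expression of the 38 cell cycle genes was read from 2 droplet libraries of sorted skin leukocytes, 1 per genotype. The authors deposited raw UMI counts per gene and barcode, empty droplets included. Per the submitters' processing notes, Cell Ranger 3.1 and Seurat 3.2.2 were used with build mm10, and the settings are not given in the sources used here. CPM values were computed here from the deposited counts as summed UMIs of a class over all its UMIs.

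Classes were set cell by cell from marker genes by a Poisson count against free RNA, taken as 20% of a cell's UMIs (p under 0.001 for a lineage, 0.01 within T cells). The marker lists lacked 6 genes that the tables do not list under those names. No doublet caller was used for the values in the text. Cells with markers of 2 lineages were left out of classes instead. Members were measured in a class where they had 50 or more UMIs over both libraries. Intervals are at 95%: exact binomial for shares, the log method for their ratios, and an exact binomial split for ratios of CPM. Sites and genes were placed with RefSeq windows on GRCm38.p6. Scripts used Python 3.11.15, numpy 2.4.6, scipy 1.17.1, pandas 2.3.3 and scanpy 1.11.5 (seed 1), and were tested on simulated data.

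Named genes were the 5 members with most UMIs in each set, the highest and lowest ratio in each class of 100 or more cells per library, Wee1 in every class, and the 3 highest and 3 lowest genes of each of 4 other lists in lymphoid and myeloid cells. Other members are named to show a range. Of the genes this rule names, 1 is not reported here. The members and lists were chosen with earlier results of these data known. Alternatives were other call thresholds, depths, phase scores, filters, clusters and Scrublet.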

Additional observations from a re-analysis of the deposited data

Results flagged for a closer look

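The ratio of the G2/M set between the libraries, IL31RAKO over WT, lay on opposite sides of 1 in different classes. It was 1.62 in Langerhans-like cells (1.53 to 1.72), 0.305 in Cd163l1/Blk T cells (0.283 to 0.328) and 0.603 in macrophage-like cells (0.565 to 0.644). With 1 library per genotype the difference between these classes was not tested. Langerhans-like cells rest on 313 and 197 cells, and in macrophage-like cells 28 of 34 members were at or below free RNA in both libraries.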

How the results depend on the processing

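No paired analysis was possible because the 2 libraries share only replicate number 1, and no replicate could be left out. The ratio of cycling shares in Cd163l1/Blk T cells, 0.253 in the report, was 0.402 with 2 UMIs for a call, 0.435 with cells thinned to 2000 UMIs, 0.413 in the whole Leiden cluster that holds most of the class, and 0.782 with the phase scores of scanpy, which called 48.7% of all WT and 43.9% of all IL31RAKO cells cycling. By depth it was 0.401 at 4000 to under 8000 UMIs and 0.931 at 8000 or more. For all cells (0.668) it was 0.586 with 5 UMIs for a call, 0.902 with those scores and 0.806 without the Cd163l1/Blk T cells. For lymphoid cells (0.791) it was 0.955 with the scores and reversed to 1.03 without that class. The member median there went from -0.29 to 0.093 without it and to -0.17 over Leiden clusters. For myeloid cells (0.742) the ratio was 0.582 with 5 UMIs for a call and 0.944 with the scores, and its interval reached 1 with under 5% mitochondrial UMIs (0.791, 0.624 to 1.00) and with doublets removed by Scrublet (0.815, 0.619 to 1.07). The removal of the class and the depth bins take cells away by construction. The cause of these shifts was not tested for any alternative. The G2/M set of Langerhans-like cells had a ratio of 1.84 with Scrublet. That of macrophage-like cells ran from 0.549 with free RNA subtracted at 5% of UMIs to 0.673 with free RNA taken as 40% in the gates. Of the alternatives for comparisons 73 lay within the interval of the main value, 13 moved out of it and 2 reversed. Of those for single genes and classes 1098 lay within it, 47 moved and 0 reversed. A reversal was counted only where the main interval excluded no difference, so values within an interval can change side. The ratio of the G2/M part of cycling cells did so with 2 UMIs for a call (0.997, 0.945 to 1.05). The removal of the class, its Leiden cluster, the depth bins and the gate at 40% were chosen after seeing the data. Few cycling cells limit the values of IL31RAKO Cd163l1/Blk T cells, which had 19.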
